A study of Mus musculus with 24 samples.

Results

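Megakaryocyte progenitors (MkP) are the bone marrow cells committed to form megakaryocytes, which shed platelets. This comparison sets the 3 MkP libraries of the VF line against the 3 MkP libraries of the KI line, 6 of the 24 libraries of the series, chosen by the population and genotype in their titles. VF mice combine Vav1-Cre with the valine-to-phenylalanine Jak2 mutation. KI mice combine Scl-Cre with what the genotype label calls a mouse Jak2 knock-in. A further 3 MkP libraries, of the Scl-Cre line E12 named for exon 12 of Jak2, entered the model only to share the estimate of the spread. Marrow came from C57BL/6N mice given tamoxifen for 5 days, and the cells were sorted 12 weeks after it. Vav1-Cre acts in all blood cells and Scl-Cre in stem and progenitor cells, so the mutation and the driver cannot be told apart in any VF against KI value. The labels do not say whether KI is unmutated, and it was not taken to be wild type. They also do not say whether replicates are separate mice, so p-values measure the spread between libraries.

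Jak2 codes for the kinase that carries the signal of several cytokine receptors of blood progenitors, among them those of erythropoietin and interleukin 3. Its activation leads to phosphorylated STAT proteins and to induction of targets such as Pim1, Cish and Socs genes. The valine-to-phenylalanine change makes the kinase active without ligand and is known for myeloproliferative disease with high red cell and platelet counts. Iron enters blood progenitors mainly through the transferrin receptor Tfrc and leaves cells through ferroportin, the product of Slc40a1.

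The libraries labelled KI 5 and KI 6 stood apart from the other 7 MkP libraries. Totals were 20354022 to 23023520 counts in VF, and 29691635 in KI 4, 10357877 in KI 5 and 23566542 in KI 6. Pearson's r of log2 CPM (counts per total of 1e6 after TMM scaling) across genes was 0.804 to 0.847 between these 2 libraries and the other 7, and 0.945 to 0.969 among the other 7. Genes are not independent replicates, so these values only describe the libraries. Genes under 1000 bases held 7.97% to 10.4% of the counts in VF, and 7.10% in KI 4, 38.1% in KI 5 and 37.7% in KI 6. The median gene under 500 bases was 2.44 log2 units above the VF mean in KI 5 and 2.43 in KI 6, and at -0.23 in KI 4. Among the genes that took the largest shares were Atpif1, Gm1821, Ubb, Tmsb4x and Hist1h2ao. Atpif1, an inhibitor of the mitochondrial ATP synthase, held 0.0722% to 0.101% of the counts in VF, and 0.0666%, 1.30% and 0.889% in KI 4, KI 5 and KI 6.

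**Figure D1:**
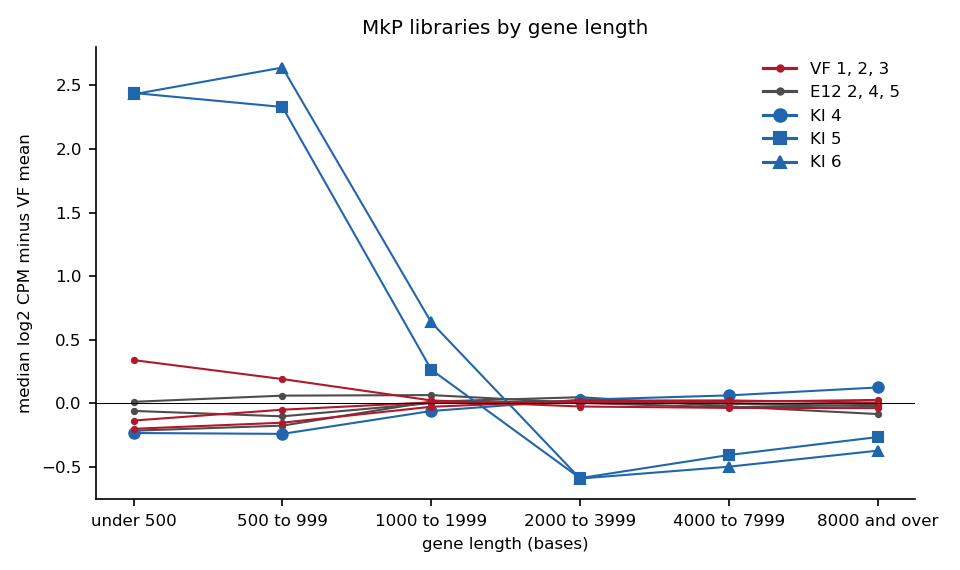
Median difference of each MkP library from the mean of the 3 VF libraries (y axis, log2 CPM) in 6 classes of gene length (x axis, bases). KI 5 and KI 6 lie at 2.33 to 2.64 in the classes under 1000 bases and at -0.59 in the class that starts at 2000 bases, while KI 4 stays between -0.24 and 0.13 in every class.

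A gene that separates the lines elsewhere also set these 2 libraries against the other KI libraries. Echdc2, an enoyl-CoA hydratase domain gene (chromosome 4, 108165436 to 108179308, GRCm38.p6), was at 0.80, 0 and 0.47 CPM in VF preMegE, the progenitors shared with red cells, against 182.5, 125 and 113 CPM in KI preMegE. It was at 3.798 to 5.95 CPM in VF long-term stem cells (LTHSC), against 230 to 305 CPM in KI LTHSC. In MkP it was at 2.15, 0.50 and 0.93 CPM in VF, against 163 CPM in KI 4, 5.45 CPM in KI 5 and 1.68 CPM in KI 6. The E12 MkP libraries had 171 to 175 CPM. At this gene KI 4 lay with the other Scl-Cre libraries, and the libraries labelled KI 5 and KI 6 lay near VF.

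The X-inactivation RNA Xist and 4 Y-linked genes divided the libraries too. Xist was at 1.67, 503 and 1.17 CPM in VF, and at 2210, 48.6 and 11.4 CPM in KI 4, KI 5 and KI 6. The 4 Y-linked genes summed to 108 to 134 CPM in VF, and to 0.137, 64.9 and 63.1 CPM in KI 4, KI 5 and KI 6. So KI 4 was the only KI library with Y-linked counts near 0, and between VF and KI 4 alone the sex signal and the line cannot be told apart. E12 4 and E12 5 had the same signal as KI 4, with Xist at 1690 and 1780 CPM and Y-linked sums of 0.244 and 0.12 CPM. The parts that gene length, sex signal and label play in the KI 5 and KI 6 values were not tested.

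All 11 MkP markers were detected in all 6 libraries and summed to 5730 to 7820 CPM in VF and 4030 to 16900 CPM in KI. Of the other types, the 7 neutrophil and monocyte markers were high, at 3080 to 6820 CPM in VF and 2050 to 4880 CPM in KI, mostly Mpo and Elane. The 4 mast cell and basophil markers summed to 24.1, 64.4 and 85.8 CPM in VF, and to 219, 623 and 392 CPM in KI 4, KI 5 and KI 6, with no overlap. Of these 4, Prss34 and Mcpt8 lay apart on their own, and Cpa3 and Ms4a2 overlapped. The 7 erythroid markers overlapped, at 145 to 362 CPM in VF and 142 to 194 CPM in KI. The 4 lymphoid markers summed to at most 2.48 CPM, with Cd3e at 0 in all 6 libraries. The 5 stroma and endothelium markers summed to 12.1 to 15.6 CPM in VF and 4.48 to 7.64 CPM in KI, with Kdr the highest of them and Cdh5 at 0. In bulk libraries fewer cells of a type and less RNA per cell cannot be told apart.

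Jak2 itself (Entrez 16452, chromosome 19, 29251803 to 29313095) was at 81.3, 67.0 and 64.0 CPM in VF, against 66.0, 46.6 and 36.5 CPM in KI 4, KI 5 and KI 6. With TMM scaling the groups overlapped through KI 4, which lay inside the VF range. The difference of mean log2 CPM was 0.54, with p = 0.2 in an exact 2-sided permutation test, which cannot give less than 0.1 with 3 libraries a group. In edgeR's quasi-likelihood fit it was log2 0.51 (SE 0.26, Benjamini-Hochberg adjusted p = 0.232). Against KI 4 alone it was log2 0.09 (SE 0.20, adjusted p = 0.921), and without KI 4 it was log2 0.78 and passed (edgeR adjusted p = 0.00797). Without TMM scaling the difference of mean log2 CPM was 1.23 (exact permutation p = 0.3). With RLE in place of TMM scaling it was 0.50 (exact permutation p = 0.1). That p is reached only where all VF libraries lie above all KI libraries, so the overlap depended on the scaling. E12 had 45.9 to 55.9 CPM. A count per gene does not show which allele was read.

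With all 3 KI libraries no gene passed an adjusted p of 0.05 in edgeR's quasi-likelihood test, 0 of 13435 genes (0%), and the smallest adjusted p was 0.0755. At an unadjusted p under 0.05 there were 3611 genes (26.9%), of which 1001 (7.45%) were higher in VF and 2610 (19.4%) lower. All 3 VF libraries lay apart from all 3 KI libraries at 2724 genes (20.3%). Without TMM scaling these counts were 971 higher and 983 lower, and the median of all genes moved to log2 0.54, against 0.01 with TMM. The other tools and sets of libraries split widely. DESeq2 called 2539 genes, and limma voom called 0 but 4105 with sample quality weights, which gave KI 4 the lowest weight of the 9 libraries (0.0613). Without KI 4 edgeR called 6732 genes of 13762 (48.9%), 3475 higher and 3257 lower in VF. Without KI 5 and KI 6 it called 60 of 14477 (0.414%), 7 higher and 53 lower, with KI 4 assumed to vary like the VF and E12 libraries.

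Since nothing passed the adjusted threshold with all libraries, the 3611 genes were described by where KI 4 lay, with no test, and none of these genes is a call. KI 4 was counted as agreeing where it lay outside the VF range on the side of KI 5 and KI 6 and its distance from the VF mean was at least 0.5 times the smaller of theirs. It agreed at 335 genes higher in VF (2.49% of the genes tested) and 344 lower (2.56%). At 107 genes higher in VF (0.796%) and 1791 lower (13.3%) KI 5 and KI 6 lay on 1 side of VF and KI 4 did not, so that these genes followed KI 5 and KI 6 alone. The remaining 559 higher and 475 lower genes were between. The genes lower in VF that followed KI 5 and KI 6 alone had a median length of 1122 bases with 41% under 1000 bases, against 2802 bases and 9.1% for all genes tested. Where KI 4 agreed the medians were 3281 bases for higher and 2968 bases for lower genes.

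**Figure D2:**
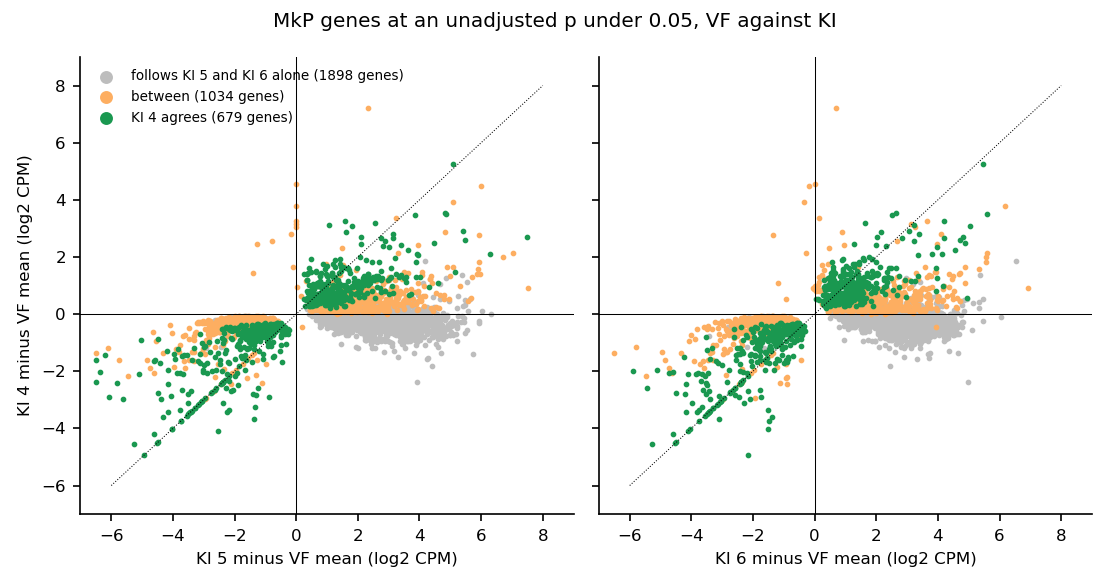
Difference from the VF mean in KI 4 (y axis) against KI 5 (left, x axis) and KI 6 (right, x axis), log2 CPM, for the genes at an unadjusted p under 0.05; the dotted line marks equal differences. The 679 genes where KI 4 agrees lie on both sides of 0, away from it in KI 4 as well, and the 1791 lower and 107 higher genes that follow KI 5 and KI 6 alone lie near 0 in KI 4.

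Where KI 4 agreed, the genes higher in VF included platelet genes. Among the higher genes with a mean of 10 CPM or more in 1 group, Serpine2 (Entrez 20720, chromosome 1, 79794317 to 79858665) had the largest difference. Predicted, pseudo- and sex-linked genes were left out of this ranking, and some genes of lower level had larger values. Serpine2 codes for a secreted protease inhibitor of platelets, protease nexin 1. It had 380, 287.5 and 358.5 CPM in VF, against 80.5, 23.0 and 31.0 CPM in KI 4, KI 5 and KI 6, and the groups were far apart (log2 2.93, SE 0.46, edgeR adjusted p = 0.0755). Serpine2 also rose against KI 4 alone (log2 2.08, SE 0.21, edgeR adjusted p = 0.00183). E12 MkP had 244.7 to 306 CPM, overlapping the VF range.

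Vwf, the platelet adhesion protein von Willebrand factor, had 533, 324 and 299 CPM in VF, against 193, 166 and 196.5 CPM in KI 4, KI 5 and KI 6 (log2 1.06, SE 0.32). Itga2b, the integrin chain CD41 of megakaryocytes and platelets, had 1488, 1264 and 1328 CPM in VF, against 797, 587.5 and 609 CPM in KI. F13a1, the A subunit of coagulation factor XIII, had 30.1, 47.6 and 54.9 CPM in VF, against 10.9, 6.94 and 17.1 CPM in KI. All 3 genes had separate groups, and KI 4 lay as low as KI 5 or KI 6 for Vwf and F13a1. The ATP-gated platelet channel P2rx1 had 87.7 to 124 CPM in VF and 17.6 to 44.8 CPM in KI, and the interleukin 6 receptor gene Il6ra 38.3 to 38.9 CPM in VF and 10.1 to 13.8 CPM in KI.

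Of the 49 megakaryocyte and platelet genes tested, 18 (36.7%) were higher and 3 (6.12%) lower in VF at an unadjusted p under 0.05. Of all genes tested 7.45% were higher and 19.4% lower. KI 4 agreed at 9 of the higher and 1 of the lower, where it agreed at 2.49% and 2.56% of all genes. The list's median was log2 0.71, where that of all genes tested was 0.01, and 0.41 against KI 4 alone. Without TMM scaling the medians were 1.18 and 0.54. In that second fit 3 of its 52 tested members rose and 0 fell: Serpine2, the platelet chemokine Pf4 and the tetraspanin Cd9. The 6 members at which KI 4 agreed and that are not yet described here are Itgb3, F5, Alox12, Tbxas1 and Ptgs1, all higher in VF with log2 values of 0.78, 1.30, 2.30, 0.89 and 0.75, and Tgfb1, lower at -0.86.

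Pf4 and Cd9 show the limit of that fit. Pf4 had 2828, 1658 and 2235 CPM in VF, against 839 CPM in KI 4, but 5263 CPM in KI 5 and 13330 CPM in KI 6. Against KI 4 alone it rose (log2 1.41, SE 0.25, edgeR adjusted p = 0.0443), and with all KI libraries it was at log2 -1.53. Cd9 had 561, 477 and 568 CPM in VF, against 293, 257 and 799 CPM in KI 4, KI 5 and KI 6. Slpi, a secreted protease inhibitor, had 28.2, 21.7 and 36.1 CPM in VF, against 5.53, 66.7 and 151 CPM in KI. At Pf4 and Slpi KI 4 lay below VF while KI 5 and KI 6 lay above it.

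Besides Serpine2 and F13a1, the 12 genes higher in VF that the rule takes where KI 4 agreed included Tifab, Cnnm2, Mtus1, Lhfp, Scrn3, Tmem158, Wdfy1, Ltbp1 and Cdk5rap1, with log2 values of 1.73 to 2.59. Wdfy1, an endosomal adaptor of Toll-like receptor signalling, had 158, 122.5 and 108 CPM in VF, against 50.8, 18.2 and 41.4 CPM in KI 4, KI 5 and KI 6. Ltbp1, which binds latent TGF-beta, had 36.7, 24.2 and 21.0 CPM in VF, against 10.3, 4.46 and 8.89 CPM in KI. The groups did not overlap at either gene, nor at Gsn, the actin-severing protein gelsolin, with 54.6, 42.8 and 55.4 CPM in VF against 17.2, 15.03 and 17.4 CPM in KI. Gsn (log2 1.56, SE 0.29) and Wdfy1 (log2 1.34, SE 0.24) also rose against KI 4 alone (edgeR adjusted p = 0.0488 and 0.0417).

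**Figure D3:**
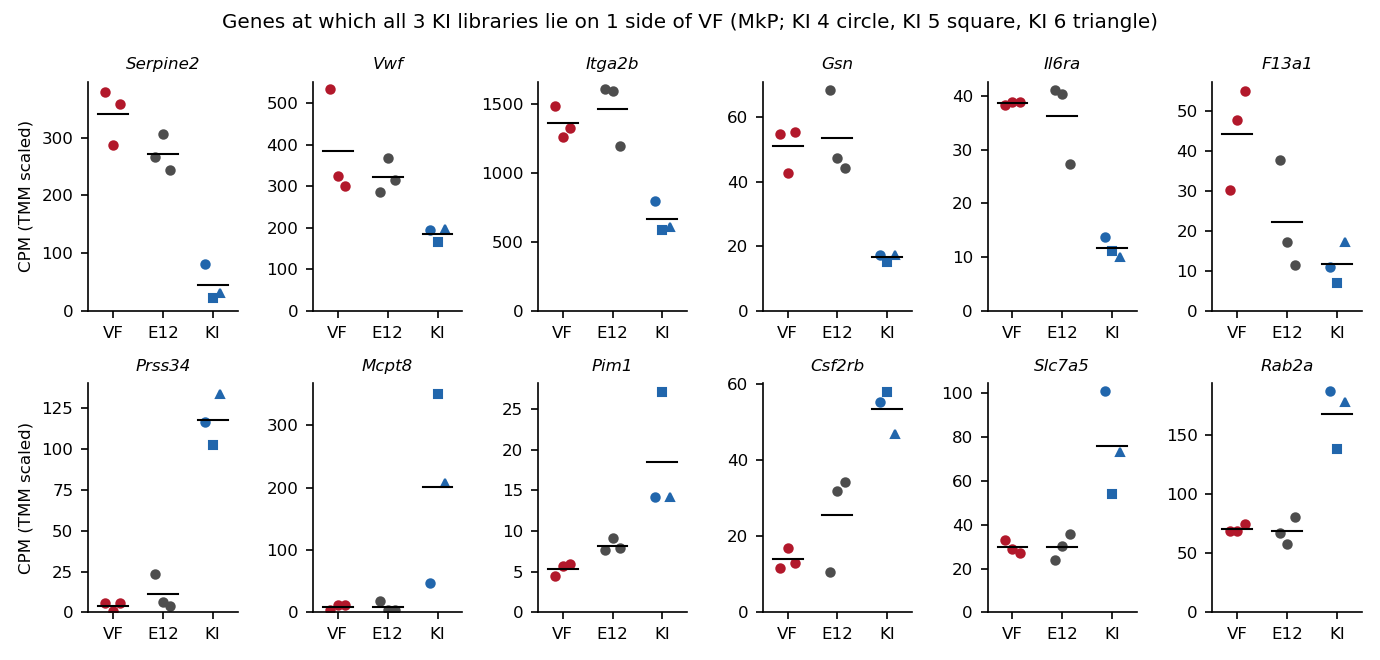
TMM-scaled CPM (y axes, from 0) of 12 genes in the VF, E12 and KI libraries of MkP; points are libraries, lines are means of 3, and the KI symbols mark KI 4 (circle), KI 5 (square) and KI 6 (triangle). In the upper row all 3 KI libraries lie below all VF libraries (Serpine2 at 23.0 to 80.5 CPM in KI), and in the lower row above them (Prss34 at 103 to 134 CPM in KI).

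Among the genes lower in VF at which KI 4 agreed, with the same floor of 10 CPM and the same genes left out, those of basophils and mast cells were the lowest. Prss34, a protease of these cells (Entrez 328780, chromosome 17, 25298394 to 25300168), had 5.86, 0.744 and 5.61 CPM in VF, against 117, 103 and 134 CPM in KI 4, KI 5 and KI 6 (log2 -4.85, SE 0.87, edgeR adjusted p = 0.0755). Mcpt8, a basophil protease, had 3.34, 11.2 and 12.3 CPM in VF, against 47.5, 350 and 207 CPM in KI (log2 -4.49, SE 0.88, edgeR adjusted p = 0.0755). KI 4 was as high as KI 5 and KI 6 at Prss34 but between the others and VF at Mcpt8. Neither passed against KI 4 alone (edgeR adjusted p = 0.294 and 0.377). E12 MkP had 23.6, 6.11 and 3.73 CPM of Prss34 and 17.6, 4.396 and 4.43 CPM of Mcpt8.

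Of the 14 mast, basophil and eosinophil genes tested, 5 (35.7%) were lower in VF at an unadjusted p under 0.05 and 0 higher. Of all genes tested 19.4% were lower and 7.45% higher. KI 4 agreed at Prss34 and Mcpt8 (14.3% of the list, 2.56% of all genes). The list's median was log2 -2.14 with all KI libraries and -0.11 against KI 4 alone. Fcer1a, the IgE receptor chain, had 19.6, 22.4 and 8.02 CPM in VF, against 38.2, 320 and 348 CPM in KI 4, KI 5 and KI 6. The eosinophil granule genes Prg2 and Prg3 followed KI 5 and KI 6 alone. Of the 4 mast cell and basophil markers only Prss34 and Mcpt8 separated the groups. Cpa3 had 12.5, 45.4 and 62.4 CPM in VF, against 42.8, 135 and 51.1 CPM in KI. Ms4a2 had 2.37, 7.06 and 5.41 CPM in VF, against 12.1, 34.9 and 0.16 CPM in KI. Any part of basophil or mast cell RNA in other differences was not tested.

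The promoters of Serpine2, Prss34 and Mcpt8, the genes with the largest differences in each direction among those where KI 4 agreed and 1 group averaged 10 CPM or more, are given as the 250 bases before the start of the RefSeq transcript in GRCm38.p6, read on the strand of the gene. Capitals mark AGATAA on either strand, the core bound by GATA factors, which occurs in 9.99% of 32851 such promoters.
Serpine2, chr1:79858666-79858915, minus strand: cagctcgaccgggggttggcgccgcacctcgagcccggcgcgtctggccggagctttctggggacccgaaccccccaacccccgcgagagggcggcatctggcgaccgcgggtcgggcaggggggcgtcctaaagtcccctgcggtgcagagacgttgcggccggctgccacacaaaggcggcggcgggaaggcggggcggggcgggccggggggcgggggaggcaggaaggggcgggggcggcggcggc
Prss34, chr17:25298144-25298393, plus strand: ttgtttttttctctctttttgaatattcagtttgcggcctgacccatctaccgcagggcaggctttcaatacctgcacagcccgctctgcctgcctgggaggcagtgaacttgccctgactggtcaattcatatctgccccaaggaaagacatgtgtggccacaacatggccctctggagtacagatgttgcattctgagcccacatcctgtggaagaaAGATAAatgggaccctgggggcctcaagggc
Mcpt8, chr14:56085198-56085447, minus strand: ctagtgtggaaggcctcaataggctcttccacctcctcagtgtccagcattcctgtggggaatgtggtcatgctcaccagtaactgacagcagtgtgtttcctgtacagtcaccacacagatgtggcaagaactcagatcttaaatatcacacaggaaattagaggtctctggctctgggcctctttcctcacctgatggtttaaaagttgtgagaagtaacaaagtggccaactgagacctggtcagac

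The Prss34 promoter held AGATAA at position -31 from the start, and the other 2 windows held none. The STAT-type motif TTCNNNGAA, which occurs in 7.02% of all these promoters and reads the same on both strands, was in none of the 3. Of the 12 higher and 12 lower genes named where KI 4 agreed, 8 and 8 were matched to promoters. Of their promoters, 1 of 10 for the higher and 0 of 11 for the lower genes held TTCNNNGAA, and 0 of 10 and 2 of 11 held AGATAA. A match describes the letters only.

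The other genes lower in VF with KI 4 agreeing included cytokine signalling genes. Csf2rb, the shared beta chain of the interleukin 3, interleukin 5 and GM-CSF receptors, had 11.7, 17.0 and 13.1 CPM in VF, against 55.5, 58.0 and 47.0 CPM in KI 4, KI 5 and KI 6 (log2 -1.94, SE 0.41, edgeR adjusted p = 0.0755). The 3 KI libraries lay close together, well above VF. E12 had 10.6, 31.8 and 34.4 CPM. Pim1, a kinase induced by STAT5, had 4.45, 5.70 and 6.00 CPM in VF, against 14.2, 27.1 and 14.3 CPM in KI (log2 -1.77, SE 0.37).

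Of the 27 JAK-STAT targets tested, 1 was higher (3.7%) and 5 lower (18.5%) in VF at an unadjusted p under 0.05. Of all genes tested 7.45% were higher and 19.4% lower. KI 4 agreed at Trib1, higher (3.7% of the list, 2.49% of all genes). It also agreed at Pim1, Mcl1 and Junb, lower (11.1% of the list, 2.56% of all genes). Trib1 was at most at 0.519 CPM in VF and at 0 in all KI libraries. The list's median was log2 0.22, and -0.00492 against KI 4 alone. Socs2, a feedback inhibitor of the pathway, had 58.3, 37.2 and 42.9 CPM in VF and 34.3, 32.5 and 52.0 CPM in KI 4, KI 5 and KI 6, which overlapped. Cish, of the same family, overlapped as well, at 14.6 to 24.3 CPM in VF and 14.5 to 51.0 CPM in KI.

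Immediate-early genes respond quickly to growth signals and to handling of cells. Of the 26 tested, 0 were higher and 9 lower (34.6%) at an unadjusted p under 0.05, where 19.4% of all genes were lower. KI 4 agreed at 5 of the 9 (19.2% of the list, 2.56% of all genes): Egr1, Junb, Fosb, Ier5 and Btg1. Egr1, a transcription factor, had 39.1, 20.6 and 24.6 CPM in VF, against 67.5, 61.5 and 49.1 CPM in KI 4, KI 5 and KI 6. Ier5 had 14.6, 9.54 and 18.3 CPM in VF, against 42.4, 53.9 and 29.7 CPM in KI (log2 -1.57, SE 0.35, edgeR adjusted p = 0.0755). At both genes every KI library lay above every VF library. The list's median was log2 -0.31, and -0.48 against KI 4 alone, where 0 of 29 passed the adjusted threshold and 0 were higher and 6 lower at an unadjusted p under 0.05. Without TMM scaling the median with all KI libraries was 0.04, where that of all genes was 0.54. In long-term stem cells Egr1 (log2 -5.37), Junb (-3.23), Ier5 (-2.37) and Dusp1 (-4.08) fell in VF (edgeR adjusted p = 0.00814, 0.00814, 0.0329 and 0.0485). None of these 4 calls held when any 1 VF library was left out, where the edgeR adjusted p of Egr1 was 0.0561, 0.126 and 0.118 without VF 1, VF 2 and VF 3. On leaving out 1 KI library Egr1 and Junb passed each time, Ier5 passed without KI 2 only, and Dusp1 did not pass.

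The remaining genes that the rule names as lower in VF with KI 4 agreeing were Myl10, Ccl6, Dexi, Itpr3, Rab11fip2, Pdgfrb, Siah2, D17H6S53E and Plekhg3. Myl10, a myosin light chain, had 4.30, 2.89 and 2.18 CPM in VF, against 17.2, 68.1 and 90.5 CPM in KI 4, KI 5 and KI 6 (log2 -4.22, SE 0.70, edgeR adjusted p = 0.0755). Ccl6, a chemokine, had 0.593, 1.32 and 2.06 CPM in VF, against 8.05, 11.1 and 23.1 CPM in KI. At Itpr3, Pdgfrb, D17H6S53E and Plekhg3, KI 5 was more than 3 times as high as KI 4 and KI 6.

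Against KI 4 alone, 7 genes rose in VF (0.0484% of 14477) and 53 fell (0.366%). By the rule on its distance from VF, KI 4 agreed at 3 of the 7 and 15 of the 53. The 3 that rose were Serpine2, Gsn and Wdfy1. The 15 that fell were Hdgf, Trim28, Eif3b, Cited2, Mcmbp, Rab2a, Ubac1, Cmas, Hdgfl3, Nsmce4a, Frat2, Slc7a5, Peg12, Mcat and Macrod1. Trim28 is a transcriptional corepressor, Eif3b a translation initiation factor, Cited2 a transcriptional coregulator needed in blood stem cells, Slc7a5 a transporter of large neutral amino acids and Rab2a a small GTPase of the early secretory pathway.

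Slc7a5 had 33.0, 29.0 and 26.9 CPM in VF, against 101 CPM in KI 4, 54.2 CPM in KI 5 and 73.0 CPM in KI 6 (against KI 4 log2 -1.77, SE 0.22, edgeR adjusted p = 0.00728). Rab2a had 68.8, 68.5 and 74.2 CPM in VF, against 187, 138 and 178 CPM in KI (against KI 4 log2 -1.42, SE 0.18, edgeR adjusted p = 0.00786). Nsmce4a, a subunit of the SMC5/6 DNA repair complex, had 63.2, 59.0 and 63.3 CPM in VF, against 199, 122.6 and 126 CPM in KI (against KI 4 log2 -1.70, SE 0.16, edgeR adjusted p = 0.00154). The VF libraries lay within a narrow range at each, and KI 4 was the highest KI library. The E12 libraries had 24.1 to 35.6, 57.9 to 80.5 and 58.0 to 71.6 CPM of these 3 genes, around the VF values.

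At the other 4 that rose, and at 37 of the other 38 that fell, KI 4, KI 5 and KI 6 did not all lie on 1 side of VF. At the remaining 1, the pseudogene Tmem250-ps, they did, with 401, 397.5 and 310 CPM in VF, against 726 CPM in KI 4, 6488 CPM in KI 5 and 2656 CPM in KI 6. Ctbp1, a transcriptional corepressor, had 170, 149 and 163 CPM in VF, against 423 CPM in KI 4, but 102 and 107 CPM in KI 5 and KI 6. Hnrnpab, an RNA-binding protein, had 350.5, 333 and 416 CPM in VF, against 962, 383 and 468 CPM in KI 4, KI 5 and KI 6. Arf6, a small GTPase of membrane traffic, had 69.8, 65.7 and 96.0 CPM in VF, against 273.5, 77.0 and 77.8 CPM in KI. At these 3 genes KI 4 stood above the other 2 KI libraries as well as above VF. E12 had 167 to 171 CPM of Ctbp1, 281 to 358 CPM of Hnrnpab and 60.1 to 77.1 CPM of Arf6, also below KI 4.

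Tfrc, the transferrin receptor, fell against KI 4 alone (log2 -1.19, SE 0.17, edgeR adjusted p = 0.0136). It had 52.7, 64.5 and 49.3 CPM in VF, against 126 CPM in KI 4, but 37.5 CPM in KI 5 and 46.3 CPM in KI 6. E12 MkP had 134, 142 and 152 CPM. So the Scl-Cre libraries KI 4 and E12 were above VF, and the libraries labelled KI 5 and KI 6 were below it, the order seen at Echdc2 for KI 4, E12 and VF. At Tfrc, Echdc2 and Esr1 all E12 libraries lay beyond KI 4. At the other genes called against KI 4 alone, all of them lay on the VF side of it. Those genes were picked for the distance of KI 4 from VF, with E12 in the estimate of the spread. The side of E12 was therefore partly set by the choice of genes, and the same share over all genes was not counted. Esr1, the oestrogen receptor alpha gene, had 13.1, 10.1 and 13.6 CPM in VF, against 39.3 CPM in KI 4, 8.92 CPM in KI 5 and 0.560 CPM in KI 6, and 41.9 to 51.0 CPM in E12. Asns, the asparagine synthetase of the integrated stress response, had 92.3, 90.8 and 63.4 CPM in VF, against 223, 72.3 and 89.7 CPM in KI 4, KI 5 and KI 6.

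Of the 34 iron handling genes tested, Tfrc included, 3 (8.82%) were higher and 4 (11.8%) lower in VF at an unadjusted p under 0.05. Of all genes tested 7.45% were higher and 19.4% lower. The list's median was log2 0.22, and -0.02 against KI 4 alone. KI 4 agreed at Slc40a1 and the heme oxygenase Hmox1, higher in VF, and at the zinc and iron transporter Slc39a14, lower. Over all genes it agreed at 2.49% higher and 2.56% lower. Slc40a1 had 2.41, 11.7 and 14.0 CPM in VF, against 1.34, 0 and 0.961 CPM in KI 4, KI 5 and KI 6. Hmox1 had 2.15, 2.48 and 2.77 CPM in VF, against 0, 0 and 0.480 CPM in KI. Both genes are also in the macrophage list. Of the 5 macrophage markers only C1qa lay apart, at 0.593 to 3.31 CPM in VF and 0 to 0.0548 CPM in KI. C1qb, Vcam1 and Cd68 overlapped, and Adgre1 was at 0 in VF 1 as in all KI libraries. The 5 markers summed to 8.71, 18.1 and 24.3 CPM in VF, and to 12.6, 11.9 and 40.9 CPM in KI, which overlapped. The part of macrophage RNA was not tested. The ferritin chains Fth1 and Ftl1 followed KI 5 and KI 6 alone.

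Most genes of oxidative phosphorylation, ribosomes and histones followed KI 5 and KI 6 alone. Of all genes tested 19.4% were lower in VF at an unadjusted p under 0.05, and 13.3% were lower through KI 5 and KI 6 alone. Of the 74 nuclear oxidative phosphorylation genes 58 were lower (78.4%) and 0 higher. Of the 58, 57 followed KI 5 and KI 6 alone (77% of the list). Of the 81 cytosolic ribosomal protein genes 74 were lower (91.4%), 72 of them in this way (88.9% of the list). Of the 29 histone genes 25 were lower (86.2%), 23 of them in this way (79.3% of the list). The list medians were log2 -3.04, -2.58 and -2.75 with all KI libraries, and 0.37, 0.47 and 0.42 against KI 4 alone, so the sign turned. Uqcr11, a subunit of complex III, had 206, 196.5 and 181 CPM in VF, against 162 CPM in KI 4, but 8479 and 5339 CPM in KI 5 and KI 6. Rpl35 of the large ribosomal subunit had 308, 271.5 and 568 CPM in VF, against 301 CPM in KI 4, but 13540 and 8516 CPM in KI 5 and KI 6.

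By size the genes lower in VF that followed KI 5 and KI 6 alone were led by Hist1h2ah, the lymphocyte surface peptide gene Cd52, Hist1h2bm, Hist1h2bb, Wfdc17 and Gngt2, with log2 values of -5.01 to -4.67. Cd52 had 4.86, 6.07 and 14.0 CPM in VF, against 6.30 CPM in KI 4, but 456.1 and 332 CPM in KI 5 and KI 6. The 6 that led the higher genes were Chdh, Sepsecs, Cldn12, Ero1l, Slc25a32 and Pde10a, with log2 values of 1.20 to 2.01. Ero1l, an oxidase of protein folding, had 39.3, 45.0 and 28.1 CPM in VF, against 32.3 CPM in KI 4, but 8.26 and 7.61 CPM in KI 5 and KI 6. Of 63 interferon response genes tested, 2 were higher and 15 lower (23.8%, where 19.4% of all genes were lower). Of the lower, 12 followed KI 5 and KI 6 alone (19% of the list, 13.3% of all genes). KI 4 agreed at Isg15 and Rtp4, both lower (3.17% of the list, 2.56% of all genes).

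**Figure D4:**
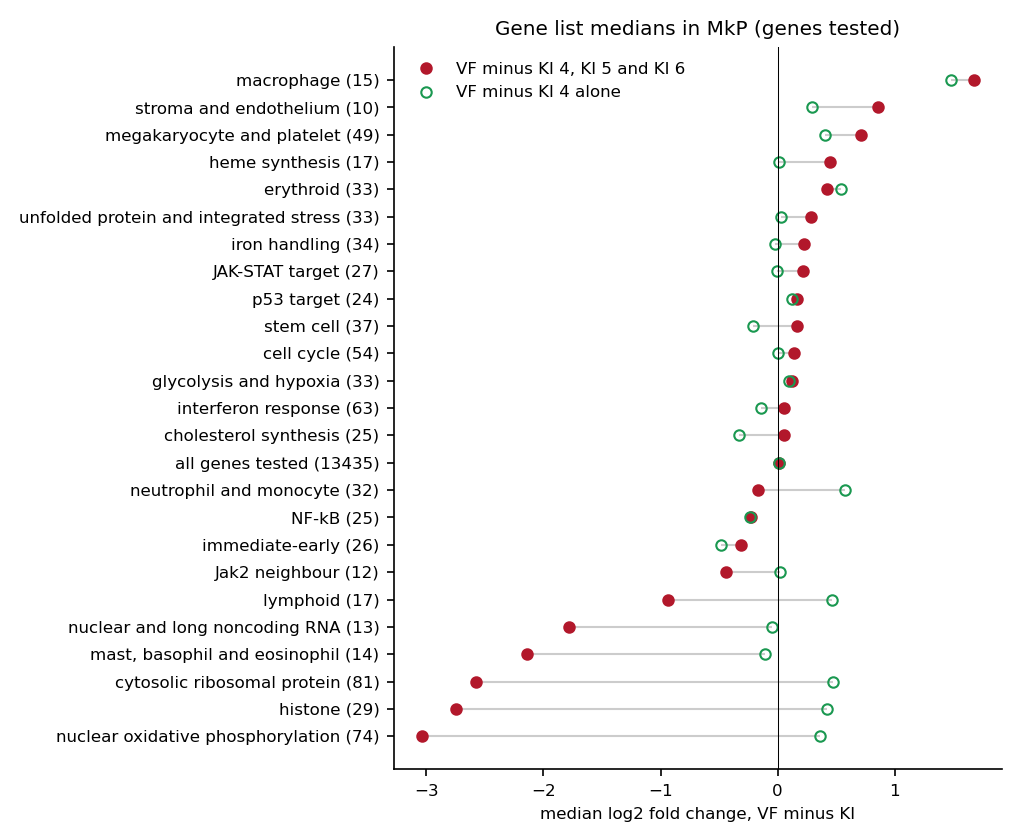
Median log2 fold change, VF minus KI (x axis), of each gene list with at least 10 genes tested (y axis, with the number tested), with all 3 KI libraries (filled) and against KI 4 alone (open). The ribosomal, histone and oxidative phosphorylation lists lie at -2.58, -2.75 and -3.04 with all KI libraries and at 0.47, 0.42 and 0.37 against KI 4 alone, while the megakaryocyte list stays above 0 in both (0.71 and 0.41).

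Of the 33 erythroid genes 7 were higher (21.2%) and 3 lower (9.09%) at an unadjusted p under 0.05 (median log2 0.42, and 0.54 against KI 4 alone). KI 4 agreed at Ank1 and Epb42, both under 3 CPM, and Mfsd2b, all higher. Over all genes it agreed at 2.49% higher. All 3 lower erythroid genes followed KI 5 and KI 6 alone. Mfsd2b, which exports sphingosine phosphate, had 589, 599 and 442 CPM in VF, against 371, 280 and 228 CPM in KI 4, KI 5 and KI 6. Of the 33 genes of protein folding and integrated stress 6 were higher (18.2%) and 4 lower (12.1%), with a median of log2 0.29. Of all genes tested 7.45% were higher and 19.4% lower. KI 4 agreed at the chaperones Calr and Pdia6, higher, and at Trib3 and Cebpb, lower (6.06% of the list, 2.56% of all genes). Calr, calreticulin, had 560, 650 and 672 CPM in VF, against 378, 335 and 299 CPM in KI. Of the 37 stem cell genes 6 were higher (16.2%) and 10 lower (27%), with a median of log2 0.16. Of the 54 cell cycle genes 1 was higher (1.85%) and 8 lower (median log2 0.14). The lower cell cycle genes were 14.8% of the list and the 6 of them that followed KI 5 and KI 6 alone 11.1%, below the 19.4% and 13.3% of all genes.

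The same lines were then compared in other cells, whose libraries are not shared with MkP; whether the populations came from the same mice is not given. The library numbered VF 2 had Xist at 503 CPM in MkP, 507 CPM in LTHSC and 297 CPM in preMegE, beside Y-linked counts, and VF 1 and VF 3 had at most 4.49 CPM in any of the 3. Equal VF numbers thus went together across populations, and the counts below were not taken as independent of those in MkP. In LTHSC edgeR called 13 genes (0.0919%) and in preMegE 2 (0.0151%), or 32 (0.235%) without preMegE KI 1, a library whose 50 most abundant genes held 20.9% of its counts, against 11.0% to 13.9% in the other preMegE libraries of both lines. In MkP that share was 22.5% in KI 5 and 22.1% in KI 6, and 10.7% in KI 4. Of the 53 genes that fell against KI 4 in MkP, 52 (98.1%) were also lower in VF LTHSC, where 49.7% of all genes were lower, with a median of log2 -0.98. In preMegE 20 of the 53 (37.7%) were lower, and 10 (18.9%) without KI 1, where 52.3% and 48.5% of all genes were lower. The LTHSC KI libraries had Y-linked sums of 179 to 246 CPM and Xist at most at 2.15 CPM, unlike KI 4. The part of the sex signal in the direction of these genes was not tested.

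Macrod1, an ADP-ribose hydrolase, shows this in LTHSC with 7.44, 12.2 and 11.3 CPM in VF, against 47.8, 24.9 and 47.2 CPM in KI, but not in preMegE, with 43.9, 15.1 and 8.75 CPM in VF and 22.9, 14.2 and 11.8 CPM in KI. Peg12, an imprinted gene, had 14.3, 16.7 and 17.6 CPM in VF LTHSC, against 48.4, 54.9 and 36.3 CPM in KI LTHSC, and 10.8, 4.49 and 5.05 CPM in VF preMegE, against 11.9, 17.0 and 23.4 CPM in KI preMegE. Its groups were apart in all 3 populations. Serpine2 had 21.7, 14.2 and 15.5 CPM in VF LTHSC, against 3.22, 3.08 and 4.73 CPM in KI LTHSC (log2 2.22, SE 0.60, edgeR adjusted p = 0.307), and overlapped in preMegE. Tfrc had 111, 92.7 and 207 CPM in VF preMegE, against 319, 276 and 237 CPM in KI preMegE (log2 -1.02, SE 0.44, edgeR adjusted p = 0.642), and overlapped in LTHSC.

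The genes at which KI 4 agreed were also mostly on the same side in the other cells. Of the 335 higher and 344 lower, 316 and 341 were tested in LTHSC, and 69.3% of the higher and 76% of the lower had the same direction, against 50.3% and 49.7% of all genes. In preMegE the shares were 77.7% and 79%, against 47.7% and 52.3% of all genes. Without KI 1 they were 65% and 57.7%, against 51.5% and 48.5% of all genes. The 1774 genes tested in preMegE that were lower in VF MkP through KI 5 and KI 6 alone had the same direction there in 97.2% of cases, but in 44.3% without KI 1 and in 50.7% in LTHSC. The 107 higher genes that followed KI 5 and KI 6 alone had it in 83.2% in preMegE, 57.9% without KI 1 and 65.4% in LTHSC. In LTHSC that share was near the 69.3% of the higher genes at which KI 4 agreed. Of the 13 genes called in LTHSC 12 were tested in MkP. By the side of the VF mean alone, their LTHSC direction was seen in KI 4 at 12, in KI 5 at 9 and in KI 6 at 9. Some of these values lay inside the VF range, those of KI 4 at Ppp1r15a and Zfp36 and of KI 6 at Echdc2 and Dusp1. The same share over all genes was not counted. The exceptions for KI 5 and KI 6 were Pf4, Ppp1r15a and Zfp36. Of the genes called in preMegE without KI 1, 30 were tested in MkP. Their preMegE direction was seen in KI 4 at 22, in KI 5 at 20 and in KI 6 at 18, so the KI libraries differed less there. At the 2 genes called with all preMegE libraries, KI 4, KI 5 and KI 6 all had that direction.

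**Figure D5:**
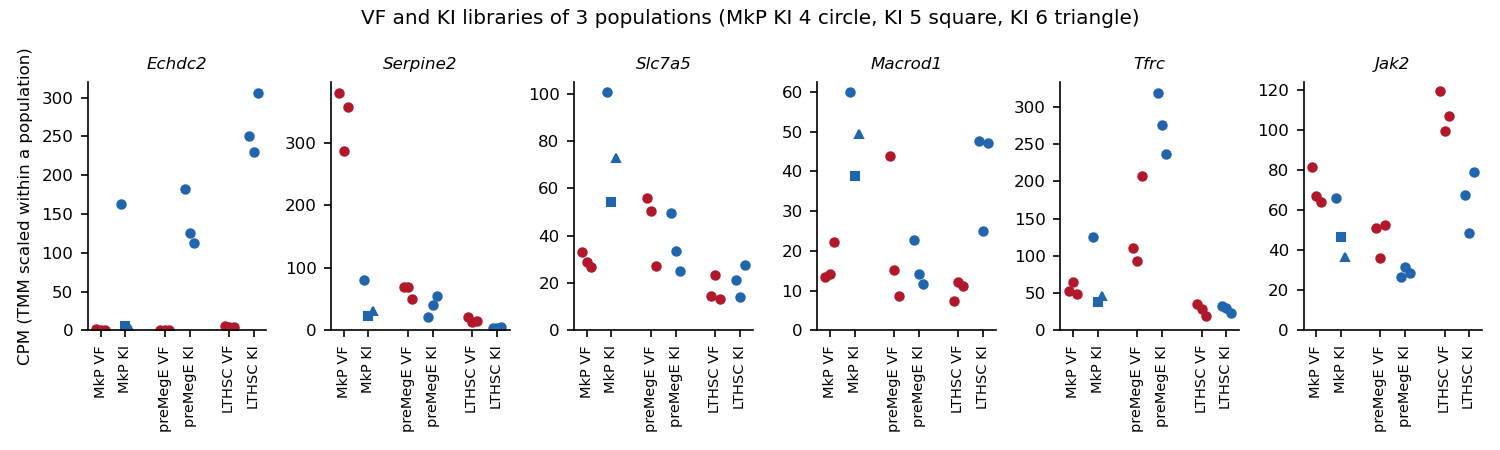
TMM-scaled CPM within each population (y axes, from 0) of 6 genes in the VF (red) and KI (blue) libraries of MkP, preMegE and LTHSC (x axes); points are libraries, and MkP KI symbols mark KI 4 (circle), KI 5 (square) and KI 6 (triangle). Echdc2 is at 113 CPM or more in every KI library except KI 5 and KI 6 of MkP (5.45 and 1.68 CPM), and Macrod1 is apart in MkP and LTHSC but not in preMegE.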

How the data were processed

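The authors deposited 1 table of raw read counts, with genes as Entrez IDs, from Smart-seq2 libraries of sorted marrow cells. STAR 2.7.0c, Subread 1.6.4 and featureCounts, and the build mm10, are named per the submitters' processing notes, and the strand setting is not given in the sources used here. Without strand, overlapping antisense genes cannot be told apart, and near copies such as histone and ribosomal protein genes and their pseudogenes can share reads. The reads carry no molecular identifiers, so counting error is understated, and the spread between libraries sets the precision. Of 24454 genes, 24374 matched RefSeq genes of GRCm38.p6 by ID, and rows without a symbol held at most 0.013% of a library. Counts of every one of 276 library pairs differed beyond sampling noise, with chi-square divided by its degrees of freedom at 20.7 or more. The deposited gene length served only to sort genes by length. MEP in column names was read as preMegE, with genotype and number matched.

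Within each population edgeR 4.0.16 (R 4.3.3) was run with filterByExpr, TMM factors, robust quasi-likelihood dispersions and Benjamini-Hochberg adjusted 2-sided tests; SE is the log2 fold change divided by the square root of F. Log2 CPM used a prior count of 2. Named genes passed an unadjusted p of 0.05 with a mean of 10 CPM or more in 1 group, predicted, pseudo- and sex-linked genes left out: the 12 largest each way where KI 4 agreed, the 6 largest each way where not, list members, those called against KI 4, and a few chosen after their values were seen. The rule was meant for adjusted p; none passed, so the unadjusted p was used, a choice made after seeing the data. Genes that the rule takes but that are not named are not reported here. Members and the 27 gene lists were chosen with earlier results of these data known. Counts were also simulated with no library made to deviate, though their spread may still hold that of the libraries that stood apart. With all KI libraries (13204 genes), 2-, 4- and 8-fold changes were recovered in 4.48%, 43.3% and 77.3% of cases. With KI 4 alone (14043 genes) the shares were 20.9%, 73.1% and 80.3%. The 2 settings differ in libraries and in genes tested, so their shares are not a like comparison. Some unchanged genes were called in both settings, and more of them with KI 4 alone. Alternatives were RLE and no scaling, no filter, DESeq2 1.42.0, limma 3.58.1 voom with and without quality weights, fewer groups and left-out libraries.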

Additional observations from a re-analysis of the deposited data

Results flagged for a closer look

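At 3 of the genes reported here all VF libraries lay on 1 side of all KI libraries in MkP and on the opposite side in another population. The difference between populations was not tested for any of them. Mtus1 was at log2 2.06 in MkP and -1.29 in LTHSC, with 4.79 to 10.04 CPM in VF LTHSC and 12.9 to 20.1 CPM in KI LTHSC. Mpo, the neutrophil myeloperoxidase, was at log2 1.45 in MkP, with 2233, 4319 and 5284 CPM in VF and 1579, 1425 and 1338 CPM in KI, and at -1.98 in LTHSC. Plekhg3 was at log2 -2.02 in MkP, through KI 5 mainly, and at 1.31 in preMegE. Groups of 3 libraries were too small to be searched for single outlying samples.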

How the results depend on the processing

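No paired analysis was possible because VF replicates are numbered 1 to 3 and KI replicates 4 to 6, with no number in common. The count of genes passing with all libraries (0 higher, 0 lower) became 456 and 2083 with DESeq2, 1494 and 2611 with voom quality weights and 7 and 53 without KI 5 and KI 6. Leaving out 1 library gave 0 to 3475 higher and 0 to 3257 lower, above 0 only without KI 4. At an unadjusted p the 1001 higher genes became 2381 with quality weights and 422 with only VF and KI (463 to 4027 on leaving out 1 library). The 2610 lower genes became 983 without TMM, 1678 with voom and 755 without KI 5 and KI 6 (1826 to 3597 on leaving out 1 library). Genes at which KI 4 agreed, 335 higher and 344 lower (679 in all at an unadjusted p, 0 at the adjusted), became 615 and 543 at a required distance of 0.25 times, 191 and 210 at 0.75 times, 181 higher with only VF and KI and 97 lower without TMM. Genes following KI 5 and KI 6 alone, 107 higher and 1791 lower, became 71 and 719 without TMM, and 5 higher with only VF and KI.

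Against KI 4 alone the 7 higher genes became 20 with no filter and 146 with DESeq2, and the 53 lower genes 184 with DESeq2 and 21 with only VF and KI. Leaving out 1 VF library gave 4 to 9 higher and 17 to 54 lower; without VF 2, 19 of the 60 passed, but all 60 kept their direction in these fits. These alternatives to the fit against KI 4 alone were chosen after seeing the data. The Jak2 difference ranged from 0.35 to 0.78 on leaving out 1 library and was 1.23 without TMM. In preMegE, of the 53 lower genes 10 to 40 were lower and of the 7 higher 3 to 5 higher on leaving out 1 library, with 0 to 32 genes called in all and 0 with RLE scaling; in LTHSC 50 to 53, 5 to 6 and 1 to 7. The cause was not tested.

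Signs turned without KI 5 and KI 6 for Hist1h2ah (0.35), Cd52 (0.39), Wfdc17 (0.60), Slpi (2.36), Pf4 (1.41), Gp9 (0.53), Elane (1.97), Uqcr11 (0.26), Atpif1 (0.47) and Rpl35 (0.33). On leaving out 1 library Tfrc ranged from -0.63 to 0.41, Asns from -0.93 to 0.0276 and Esr1 from -0.996 to 1.53, each above 0 only without KI 4. Elane ranged from -1.09 to 0.24, above 0 only without KI 6, and Cd9 from -0.0234 to 0.96, below 0 only without KI 5. With quality weights Tfrc was at 0.32, Asns at 0.00182 and Esr1 at 1.81. Without TMM Gp9 was at 0.0367 and Elane at 0.39, and with voom Slpi was at 0.0186 and Esr1 at 0.30. Of the other values of named genes under the alternatives 900 stayed on the same side of the threshold and 198 came to pass it.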

Other observations

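Several lists were not described above, and all counts are at an unadjusted p under 0.05 with all KI libraries. Of all genes tested 7.45% were higher and 19.4% lower in VF at this threshold. Of the 17 heme synthesis genes 2 were higher (11.8%) and 1 lower (5.88%) in VF (median log2 0.45, and 0.0095 against KI 4 alone). Alas1, the first enzyme of the pathway, had 76.2, 104.5 and 148 CPM in VF, against 82.6 CPM in KI 4, and 39.8 and 41.6 CPM in KI 5 and KI 6. Of the 33 glycolysis and hypoxia genes 4 were higher (12.1%) and 3 lower (9.09%), with a median of log2 0.12. Of the 25 cholesterol synthesis genes 1 was higher (4%) and 1 lower (4%), with a median of 0.05. Of the 24 p53 targets 4 were higher (16.7%) and 3 lower (12.5%), with a median of 0.16. Of the 25 NF-kB genes 0 were higher and 7 lower (28%), with a median of -0.23, and 0.12 without TMM scaling. Of the 12 genes near Jak2 3 were higher (25%) and 4 lower (33.3%), with a median of -0.44, and 0.14 without TMM scaling.

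The lists of other cells are set against the same 7.45% higher and 19.4% lower of all genes. Of 32 neutrophil and monocyte genes 1 was higher (3.12%) and 3 lower (9.38%), with a median of log2 -0.16, and 0.58 against KI 4 alone. Of 17 lymphoid genes 0 were higher and 3 lower (17.6%), with a median of -0.94, and 0.46 against KI 4 alone. Of 15 macrophage genes 4 were higher (26.7%) and 2 lower (13.3%), with a median of 1.68. Of 10 stroma and endothelium genes 3 were higher (30%) and 1 lower (10%), with a median of 0.86. Of 13 nuclear and long noncoding RNAs 0 were higher and 8 lower (61.5%), with a median of -1.78. Of the 8, 4 followed KI 5 and KI 6 alone (30.8% of the list, 13.3% of all genes). None of the 6 globin genes or 6 sex-linked genes tested in edgeR's fit passed the unadjusted threshold, and no mitochondrial genome gene was in the table.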
